A study of Homo sapiens with 2 samples.

Results

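The genes described here are 10 genes of the Hippo pathway, namely CTGF, CYR61, ANKRD1, AMOTL2, AJUBA, LATS2, YAP1, WWTR1, TEAD1 and TEAD4. They were taken by gene symbol from the annotation of the array, with no filter on their values, though with earlier results of these data known. They are 10 of the 34757 gene symbols of the array. The array held 11 probes for them, 2 for WWTR1 and 1 for each of the others. The current symbols of CTGF and CYR61 are CCN2 and CCN1. These genes were compared between A375 cells transfected with an siRNA against THOC2 (si-THOC2) and A375 cells transfected with control siRNA (NC), both 48 h after transfection, to see whether their mRNA levels differed with THOC2 knockdown.

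A375 is an established human melanoma cell line, and THOC2 is a scaffold subunit of the THO/TREX complex, which couples transcription to mRNA export. Total RNA of each culture was labelled with Cy3 and measured on 1 Agilent SurePrint G3 Human Gene Expression v3 array, so there was 1 array per condition and no replicate. No test between the conditions was possible, and no p-value is given. The methods list several siRNAs against THOC2, the one used on the array was not named, and the labels and the methods name different growth media. The sample titles and descriptions also conflicted with the source names, which gave the opposite condition for each array, and the titles were followed. Both THOC2 probes had the lower signal on the array titled for si-THOC2. The probe at chrX:122747960-122748019 (hg19) gave a signal of 67.3 on the NC array and 35.1 on the si-THOC2 array, and the probe at chrX:122734486-122734545 gave 136 and 40.9. After scaling, their log2 fold changes were -0.63 (technical SD 0.11) and -1.42 (technical SD 0.10), with a mean of -1.03.

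YAP1 and WWTR1 (also called TAZ) are paired transcriptional coactivators that bind no DNA themselves and act through the TEAD family of DNA-binding factors. When the Hippo kinase cascade is active, LATS kinases phosphorylate YAP1 and WWTR1, which are then held in the cytoplasm or degraded. When it is inactive, the coactivators enter the nucleus and TEAD factors at promoters and enhancers drive genes such as CTGF, CYR61 and ANKRD1. Some targets, such as LATS2 and AMOTL2, restrain YAP1 in turn and form a feedback loop. The activity of YAP1 is set largely by phosphorylation and location, which an mRNA array does not measure.

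TEAD factors bind the core CATTCC, which reads GGAATG on the other strand, and the longer form ACATTCC is the classical site. The RefSeq promoter windows (GRCh38.p14), which run from 250 bases before to 50 bases after an annotated start, held 10 windows for 7 of the 10 genes. CYR61, TEAD1 and TEAD4 had no entry. The promoters of CTGF and ANKRD1 are shown because they held more than 1 match. They are given 5′ to 3′ on the strand of the gene, for the 250 bases before the start, with the core in capitals. CTGF lies at chr6:131951373-131951622 and ANKRD1 at chr10:90921088-90921337, both on the minus strand.
CTGF: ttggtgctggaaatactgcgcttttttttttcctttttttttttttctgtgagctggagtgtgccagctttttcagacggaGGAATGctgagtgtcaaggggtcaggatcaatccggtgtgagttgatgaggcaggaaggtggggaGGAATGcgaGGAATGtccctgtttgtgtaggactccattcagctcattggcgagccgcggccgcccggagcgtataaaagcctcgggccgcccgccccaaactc
ANKRD1: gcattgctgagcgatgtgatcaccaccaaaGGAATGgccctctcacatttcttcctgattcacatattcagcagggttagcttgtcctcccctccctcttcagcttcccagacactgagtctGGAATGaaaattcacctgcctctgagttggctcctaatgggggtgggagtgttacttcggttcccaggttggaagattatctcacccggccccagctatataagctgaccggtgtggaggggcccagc

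The core was found on either strand in 6 of the 10 windows and in 6 of the 7 genes. Of all 35116 windows of the same length, 14.0% held it. CTGF had 3 matches, which lay 169, 104 and 95 bases before the start on the other strand, and 0.128% of all windows held 3 or more. ANKRD1 had 2 matches, 220 and 128 bases before the start, and 1.37% of all windows held 2 or more. The single matches of AMOTL2, AJUBA, YAP1 and LATS2 are shown with the bases around them, again on the strand of the gene.
AMOTL2: aaactctcaCATTCCtggcatagc
AJUBA: aagttggctGGAATGaagccaaag
YAP1: gagtgtgcaGGAATGtagcaactt
LATS2: gacgcccgtGGAATGccaacaatg

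These matches lay 69 bases before the start in AMOTL2, 59 in AJUBA and 162 in YAP1, and 10 bases after the start in LATS2. AMOTL2 and AJUBA each had 2 windows, of which 1 held the match, and neither window of WWTR1 held the core. The longer form, which contains the core, was found in 3 of the 10 windows (CTGF, AMOTL2 and YAP1), against 3.46% of all windows. A match of these letters is a description and not a shown binding site, and no binding was measured in these cells.

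**Figure D1:**
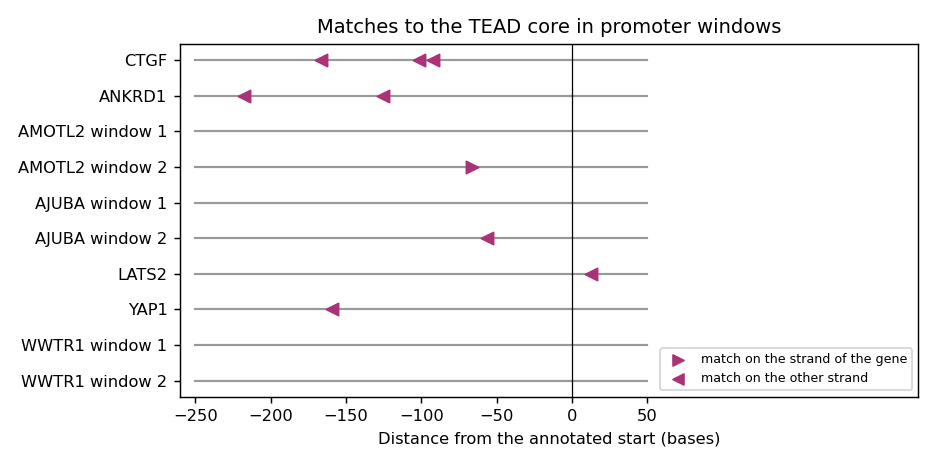
Positions of the letters CATTCC (triangles, pointing by strand) in the 10 promoter windows, as the distance in bases from the annotated start. CTGF has 3 matches and ANKRD1 has 2, AMOTL2, AJUBA, LATS2 and YAP1 have 1, and the WWTR1 windows have none.

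The array reports each gene through 60-base probes. The probes of YAP1, WWTR1 and TEAD4 are shown for these reasons. YAP1 was printed on 10 spots, the WWTR1 probes differed in detection and the TEAD4 probe spans 165 bases of the genome. Nothing is in capitals, since no part of a probe stands out.
YAP1: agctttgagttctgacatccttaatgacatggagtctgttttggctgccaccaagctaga
WWTR1 probe 1: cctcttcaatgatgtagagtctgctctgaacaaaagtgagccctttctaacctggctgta
WWTR1 probe 2: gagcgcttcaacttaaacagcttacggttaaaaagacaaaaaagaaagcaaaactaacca
TEAD4: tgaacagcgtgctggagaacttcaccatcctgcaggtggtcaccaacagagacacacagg

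The YAP1 probe lies at chr11:102100584-102100643 on the plus strand (hg19). The WWTR1 probes lie on the minus strand at chr3:149238593-149238652 and chr3:149419490-149419549, with starts 180897 bases apart. The TEAD4 probe, on the plus strand at chr12:3149391-3149555, spreads its 60 bases over 165 bases of the genome. Whether probes lie in coding exons or UTRs was not analysed here.

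The signals below are the processed signals of the scanner software, an intensity with the background removed and no unit of mass. The si-THOC2 array was dimmer, and its 75th percentile lay 0.31 lower on the log2 scale than that of the NC array (6.31 against 6.62). Each log2 fold change was therefore taken after subtracting the 75th percentile of each array, so that a signal lower by 0.31 on the si-THOC2 array stands for no change. Of the 58199 probes, 42.3% on the NC array and 39.4% on the si-THOC2 array were well above background, and the lowest signals so marked were 14.7 and 15.9. Technical SDs came from probes printed on several spots, at like signal, and they leave out the spread between cultures. The scanner software also gave an error for each spot. For a difference between the arrays, that error amounted to 0.20 to 0.21 on the log2 scale for the measured YAP and TEAD genes. It was 0.25 and 0.24 for the THOC2 probes, in the order given above.

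The main result was that the genes differed little between the arrays. Of the 10 genes, 9 were measured on both arrays, and their log2 fold changes ran from -0.14 (TEAD1) to 0.46 (AMOTL2) with a median of 0.17. The median over all 17514 genes compared was 0.02, and over the 15647 genes measured on both arrays it was 0.04. None of the 9 genes was called at 2-fold (0 of 9), while 3.34% of all genes compared were called lower and 2.96% higher. None was past 1.5-fold either (0 of 9), beside 7.19% of genes lower and 6.03% higher. Dim genes make up most of these shares, and each of the 9 genes exceeded a log2 signal of 7 in both conditions. Among the 9649 genes as bright as that, 0.155% were called lower and 0.207% higher at 2-fold, and 0.891% lower and 1.14% higher at 1.5-fold. A count of 0 of 9 lies near those background shares and is no result about these genes.

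The direction of some genes differed between the unscaled and the scaled signals. Before scaling, 7 of the 9 genes had a lower signal on the si-THOC2 array and 2, AMOTL2 and WWTR1, a higher one. After scaling, 7 were higher and 2, AJUBA and TEAD1, were lower. CTGF, CYR61, LATS2, YAP1 and TEAD4 changed side. AMOTL2 and WWTR1 were higher and TEAD1 and AJUBA lower on both scales, although AJUBA came to 0.00 when blocks of spots were centred. The middle 95% of the bright genes spanned -0.42 to 0.47 (SD 0.23), and 9 of 9 genes lay inside it. Of these bright genes 61.1% lay above 0, with a median of 0.05.

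**Figure D2:**
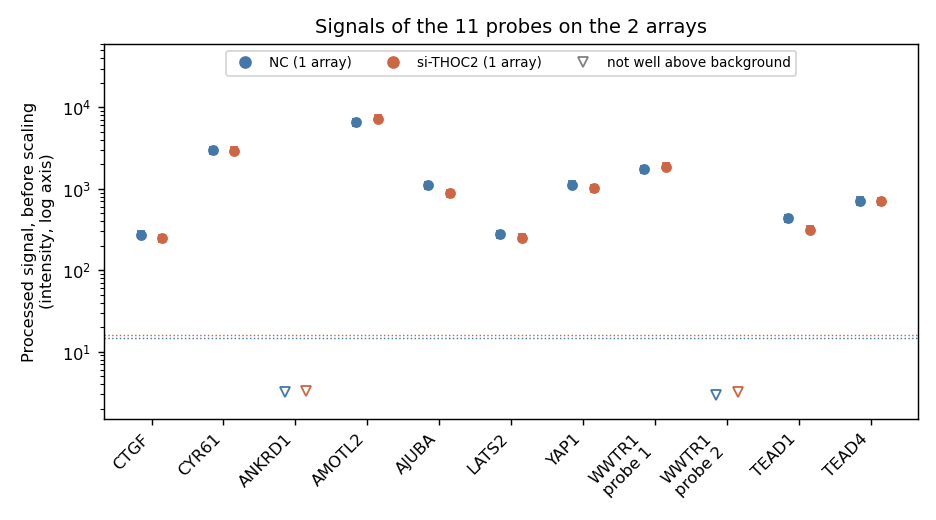
Processed signal (intensity, log axis, before scaling) of the 11 probes on the NC array (blue) and the si-THOC2 array (orange), 1 array each, with the scanner's error for the spot as bars. Open triangles, for ANKRD1 and the second WWTR1 probe, were not well above background, and the dotted lines mark the lowest signal marked as such on each array.

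CTGF and CYR61 encode secreted matricellular proteins of the CCN family and are the most widely used readouts of YAP1 and TEAD activity. The CTGF probe (chr6:132270130-132270189, minus strand, hg19) gave a signal of 273 on the NC array and 247 on the si-THOC2 array. The CYR61 probe (chr1:86048953-86049012, plus strand) gave 2973 and 2945. CTGF was thus slightly lower on the si-THOC2 array and CYR61 nearly level before scaling. Relative to the 75th percentile, the log2 fold change was 0.16 for CTGF (technical SD 0.07) and 0.30 for CYR61 (technical SD 0.05), the latter a fold of 1.23. Among bright genes, 28.3% had a larger log2 fold change than CTGF and 10.5% than CYR61.

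ANKRD1 encodes an ankyrin repeat protein of the nucleus and of muscle, and is another common YAP1 target. Its probe (chr10:92672562-92672621, minus strand) gave 3.19 on the NC array and 3.28 on the si-THOC2 array. Neither signal was well above background, so only a bound below the detection limit is known and no fold is given. ANKRD1 is thus the member of the set with no measured value for either condition.

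AMOTL2, AJUBA and LATS2 act on the pathway themselves. AMOTL2 is an angiomotin family protein of cell junctions that binds YAP1 and holds it outside the nucleus. Its probe (chr3:134074742-134074801, minus strand) gave 6547 on the NC array and 7270 on the si-THOC2 array. AMOTL2 was the gene with the largest difference of the 9, at a log2 fold change of 0.46 (technical SD 0.04, a fold of 1.38), and 2.69% of bright genes lay higher. It was one of 2 genes whose signal was higher even without scaling.

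AJUBA is a LIM domain protein that binds and inhibits LATS kinases. Its probe (chr14:23441247-23441306, minus strand) gave 1113 and 887 on the NC and si-THOC2 arrays, and the log2 fold change was -0.02 (technical SD 0.05). LATS2, a kinase that phosphorylates YAP1 and WWTR1, gave 279 and 252 (chr13:21547929-21547988, minus strand), and its log2 fold change was 0.16 (technical SD 0.07). The value of AJUBA was within its technical SD of 0. The values of these 3 genes thus spread from about 0 to the highest of the set, with LATS2 between AJUBA and AMOTL2.

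YAP1, the coactivator itself, was measured most precisely, since its probe was printed on 10 spots. On the NC array its spots gave 1097 at the lowest, 1125 at the median and 1170 at the highest. On the si-THOC2 array they gave 956, 1031 and 1079. The ranges did not overlap, and the raw signal was lower on the si-THOC2 array in 10 of 10 spots. That array was dimmer as a whole, by 0.31 on the log2 scale at the 75th percentile. Other probes printed on several spots were not counted in this way, so the separation cannot be called particular to YAP1. After scaling to the 75th percentile, the log2 fold change was above 0 in 10 of 10 spots. It ran from 0.09 to 0.24 with a mean of 0.17 and an SD of 0.05 over spots, a fold of 1.13. The 10 spots are repeats on the same arrays and not replicates of the condition. Their CV was 2.30% for NC and 3.32% for si-THOC2.

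The 4 spots with the lowest changes, 0.09 to 0.14, lay in rows 67 to 143 of the 384 rows of the array, and the other 6 spots, 0.16 to 0.24, lay in rows 161 to 358. This division was made after the values were seen. The position on the array thus moved with the value of a single gene, and its part in the differences between genes was not tested beyond centring by blocks of spots. For the measured genes other than YAP1, the median log2 fold change of the surrounding block of spots ran from 0.04 to 0.09. YAP1, printed on several spots, had no such value and was left out of the centring by blocks.

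**Figure D3:**
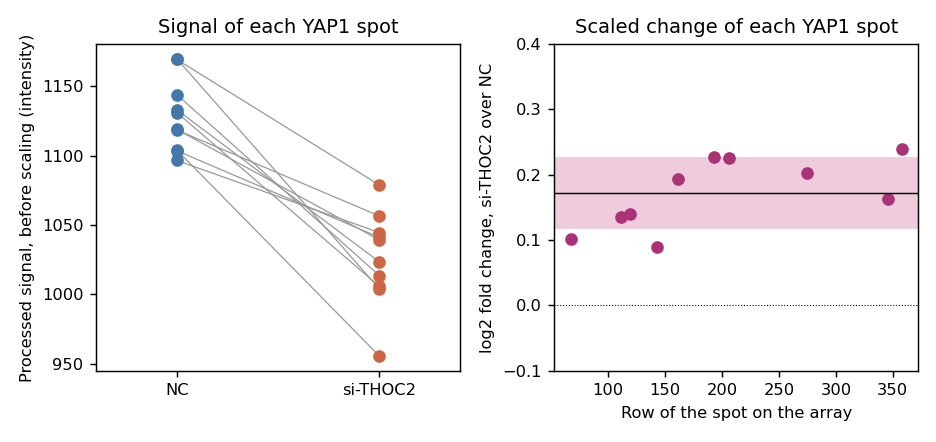
Left, the processed signal (intensity, before scaling; the axis does not start at 0) of the 10 YAP1 spots on the NC and si-THOC2 arrays, with a line joining each spot. Right, the scaled log2 fold change of each spot by its row on the array, with the mean of 0.17 as a line and 1 SD as a band; all 10 spots lie above 0.

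WWTR1, the paralog of YAP1, had 2 probes with different outcomes. Probe 1, annotated to the RefSeq transcript, gave 1751 on the NC array and 1876 on the si-THOC2 array. Its log2 fold change was 0.41 (technical SD 0.05, a fold of 1.33), and 4.06% of bright genes lay higher. Probe 2, annotated to an Ensembl transcript alone, gave 2.95 and 3.20, neither well above background, and was left out of the gene's value. The coactivators thus had changes of 0.17 for YAP1 and 0.41 for WWTR1 on the same pair of arrays.

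TEAD1 and TEAD4 encode DNA-binding partners of YAP1 and WWTR1. The TEAD1 probe (chr11:12965225-12965284, plus strand) gave 432 on the NC array and 316 on the si-THOC2 array. Its log2 fold change of -0.14 (technical SD 0.07, a fold of 0.907) was the lowest of the 9 genes, and 16.6% of bright genes lay lower. TEAD4 gave 712 and 703, a log2 fold change of 0.29 (technical SD 0.06, a fold of 1.22), and 10.9% of bright genes lay higher. The paralogs lay on opposite sides of 0 on the scaled values and were both lower before scaling, TEAD4 by little.

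**Figure D4:**
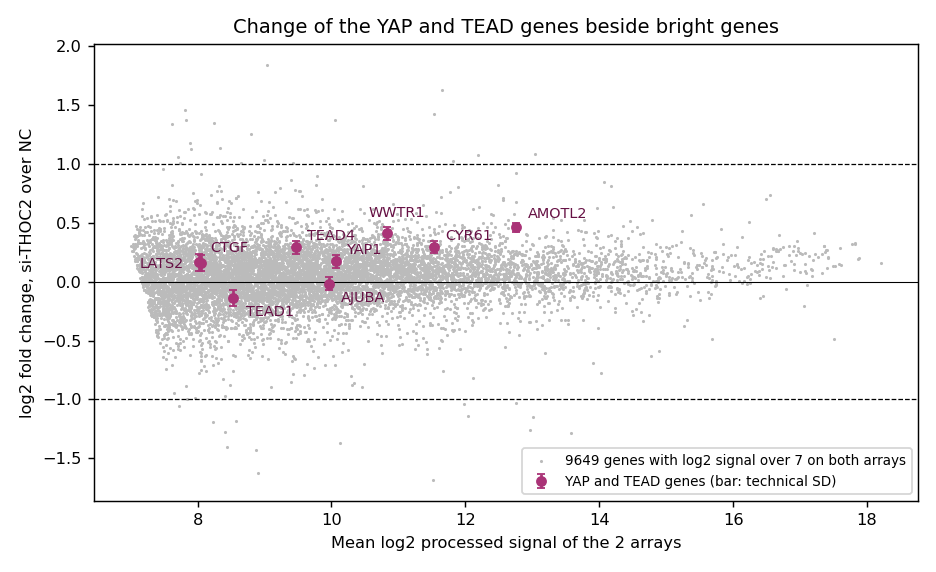
Scaled log2 fold change (si-THOC2 over NC) against the mean log2 processed signal for the 9649 genes above a log2 signal of 7 in both conditions (grey) and the 9 measured YAP and TEAD genes (purple, bars 1 technical SD). Dashed lines mark 2-fold; the 9 genes lie between -0.14 and 0.46, inside the cloud of other genes.

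In the order of their log2 fold changes the genes ran AMOTL2, WWTR1, CYR61, TEAD4, YAP1, CTGF, LATS2, AJUBA and TEAD1. The neighbours AMOTL2 and WWTR1, CYR61 and TEAD4, YAP1 and CTGF, and CTGF and LATS2 differed by less than the technical SD of their difference. WWTR1 and CYR61 differed by 0.11 (technical SD 0.07), TEAD4 and YAP1 by 0.12 (0.06), and AJUBA and TEAD1 by 0.12 (0.09). Only LATS2 and AJUBA, at 0.18 (0.09), differed by more than 2 technical SDs. Set against 0, 8 of 9 genes lay more than 2 technical SDs away. That count depends on the scaling. When scaled on probes detected on both arrays, CTGF and LATS2 lay at 0.10 each (technical SD 0.07), within 2 technical SDs of 0. Against the larger error of the scanner software, 4 lay more than 1 error away (AMOTL2, WWTR1, CYR61 and TEAD4) and 2 more than 2 errors away (AMOTL2 and WWTR1). The share of all genes past these limits was not counted, so the counts are no result about these genes. Bright genes had an SD of 0.23 with 61.1% above 0, while the technical SDs of the 9 genes were 0.04 to 0.07. Neither error includes the difference between cultures, which 1 array per condition cannot show.

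The other genes of the pathway were described by 3 lists. Their counts are to be read beside the shares over all genes compared. At 2-fold those were 3.34% lower and 2.96% higher, and at 1.5-fold 7.19% lower and 6.03% higher. Above 0 lay 9350 of the 17514 genes compared and 61.1% of bright genes. At 1.5-fold, 0.891% of bright genes were lower and 1.14% higher. Of 18 further targets of YAP1, 14 were measured, 10 above 0 and 4 below, with a median log2 fold change of 0.14. At 2-fold 0 were called in either direction, and 1 was past 1.5-fold. That gene was IGFBP3, which encodes a binding protein of insulin-like growth factors, with 15596 on the NC array and 22156 on the si-THOC2 array (log2 fold change 0.82, a fold of 1.76). Among bright genes, 0.301% lay higher. Next came THBS1, the matrix protein thrombospondin 1, at 0.39 over 2 probes (0.43 and 0.35), and F3, tissue factor, at 0.35 with signals of 243 and 250.

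Lower were GADD45A, a stress-response gene, at 7895 and 5003 (-0.35), AXL, a receptor tyrosine kinase, at 23189 and 16034 (-0.22), and NT5E, the ectonucleotidase CD73, at -0.11 over 2 probes. Of the bright genes, 4.09% lay below GADD45A and 9.69% below AXL. The targets outside the 10 genes thus lay on both sides of 0. CRIM1, CCDC80, TGFB2 and RBMS3 were not well above background on either array.

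The Hippo kinase core, the cascade above YAP1, had 11 of 12 genes measured, with 5 above 0 and 6 below and a median of -0.03. On probes measured on both arrays the median was 0.05, with 6 above and 5 below. The sign depended on STK3, an upstream kinase with 2 probes, whose mean of -0.47 was the lowest of the 11 genes. Its dim probe gave 15.5 on the NC array and 5.92, not well above background, on the si-THOC2 array, and its other probe (354 and 315) lay at 0.14. On probes measured on both arrays, the highest genes were SAV1, the scaffold of the cascade, at 0.30 (564 and 561), MOB1A, a LATS cofactor, at 0.27 (190 and 185), and STK3 with that value of 0.14. The lowest were the kinases MAP4K4 at -0.21 (125 and 87.3), TAOK3 at -0.20, and STK4 at -0.10 over 2 probes (-0.15 and -0.05). None of the 11 was past 1.5-fold, beside 7.19% of all genes compared lower and 6.03% higher. LATS1 was not well above background on either array. The 3 probes of MOB1B disagreed, at -0.43, 0.33 and 0.39, and a gene's mean hides such differences.

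Of 10 regulators and partners of YAP1 and TEAD, 9 were measured, with a median of 0.03. On probes above background on both arrays, 8 were measured and the median was 0.17. That step leaves out AMOT (-0.50, with a signal of 18.7 for NC) and a dim probe of LIMD1, whose value goes from -0.43 to 0.16. TEAD2 had the highest value, 0.72 (technical SD 0.14), but from signals of 18.0 and 23.9 that lay near background. TEAD3 followed at 0.27 (183 and 178) and VGLL4, a TEAD cofactor that competes with YAP1, at 0.21. VGLL3, another TEAD cofactor, was the lowest at -0.53 (90.3 and 50.6), and AMOTL1 lay at -0.07. Only TEAD2 was past 1.5-fold higher, and 0 were past it lower, beside 6.03% and 7.19% of all genes compared. VGLL1 was not well above background, and AMOT was so on the NC array alone.

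**Figure D5:**
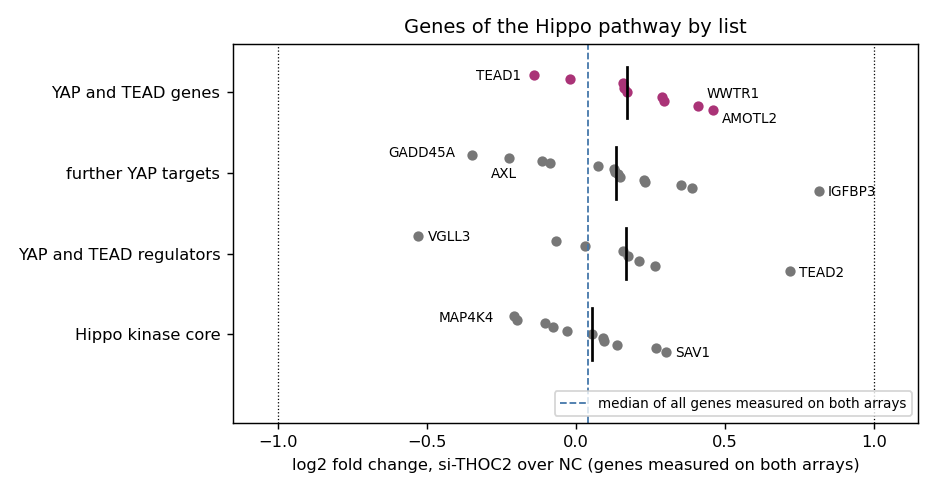
Scaled log2 fold change (si-THOC2 over NC) of each gene measured on both arrays in the 4 sets; points are genes, the black bar is the median of the set, the dashed line is the median of all genes measured on both arrays (0.04) and dotted lines mark 2-fold. The sets have medians of 0.17, 0.14, 0.17 and 0.05 from top to bottom, and no gene lies past 2-fold.

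The cell line was checked against markers. Of 8 melanocyte lineage markers, 5 were well above background on at least 1 array, SOX10 among them (6196 and 5196), while the pigment genes PMEL, TYR and TYRP1 were not. The brightest probes of all 8 summed to 6712 for NC and 5575 for si-THOC2. This sum and those below are unscaled, and the si-THOC2 array was dimmer by 0.31 on the log2 scale. After scaling, the log2 fold change was 0.06 for SOX10, -0.03 for MITF and -0.66 for S100B (199 and 102). DCT lay at 0.75 from dim signals (18.0 and 24.4), and MLANA was above background on the si-THOC2 array alone. Of 4 keratinocyte markers, KRT10 and KRT14 were above background and KRT5 and KRT1 were not, and all 4 summed to 32396 and 20734, nearly all of it KRT10 (32306 and 20623). Of 5 fibroblast markers 2 were above background, and the 5 summed to 243 and 267. They differed in direction, since DCN gave 62.4 and 149 (log2 fold change 1.56) and the brightest probe of PDGFRB 168 and 109 (-0.10 over 2 probes). COL1A1, PDGFRA and LUM were not above background. The 3 immune markers found were above background and summed to 1249 and 1004, mostly CD79A (1196 and 938), while CD3E gave 25.3 and 37.4 (0.87). Of 4 endothelial markers, NC had 4 above background and si-THOC2 had 2, KDR being the brightest (56.0 and 55.3), with sums of 111 and 93.9. Their part in the values of the YAP and TEAD genes was not tested. In a bulk sample, fewer cells of a type and less RNA per cell cannot be told apart.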

How the data were processed

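RNA of A375 cells with NC or si-THOC2, 1 culture and 1 array each, was measured on Agilent arrays. The deposited scanner output gives an intensity for every spot, background subtracted, with its error and quality marks (Feature Extraction 10.7.1.1). A second deposited table holds log2 values that the authors had normalized between arrays, used as an alternative. A deposited comparison table of their fold changes was not used.

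Of the 62976 spots per array, controls and flagged outliers (230 and 253) were left out and no spot was saturated. Processed signals were taken to log2, averaged per probe and scaled on the 75th percentile of each array. Probes whose signal was well above background in 1 or both conditions (25345; 22207 in both) were compared, and a gene is the mean of its compared probes. A gene was called at 2-fold, and 1.5-fold was a second rule. Technical SD is the median over the 50 repeated-spot probes nearest in signal, of 300. Precision is limited by the number of arrays, 1 per condition, and the test named in the methods was not run.

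The genes and lists were chosen with earlier results of these data known. Genes to be named were THOC2, the 10 genes, and up to 3 highest and 3 lowest of each list among genes measured on both arrays, and others were named with the values of a check. Positions are those of the array annotation (hg19), and promoters are RefSeq (GRCh38.p14). The comparison was tested on simulated data, where 200 of 200 changed probes of 58199 were recovered within 0.3 on the log2 scale. The simulated array was the NC array with a constant shift and technical noise, and only bright probes were changed. The tolerance of 0.3 is wider than most log2 fold changes of the YAP and TEAD genes. The simulation therefore checks the calculation and not the accuracy of changes that small. Alternatives were quantile normalization, median scaling, lowess centring (span 0.3), normexp (offset 50), detection on both arrays, the brightest probe, dim signals at their limit, no detection filter, a fold of 3 and the authors' normalized values. Scaling on probes detected on both arrays and centring by blocks of spots (16 down, 8 across) were added after seeing the data. Python 3.11.15, numpy 2.4.6, pandas 2.3.3, scipy 1.17.1, statsmodels 0.14.6, R 4.3.3 and limma 3.58.1 were used.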

Additional observations from a re-analysis of the deposited data

How the results depend on the processing

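The count of genes called was 0 of 9 under 11 alternatives and the count past 1.5-fold 0 of 9 under 10. Centring by blocks of spots, chosen after seeing the data, leaves out probes printed on several spots, YAP1 among them, and gave 0 of 8 for both. The median of the 9 YAP and TEAD genes ran from 0.09 (normexp) to 0.17. Over the 8 genes it was 0.23 with block centring and 0.23 as reported. AMOTL2 (0.32 to 0.47) was the highest, WWTR1 (0.31 to 0.43) came next and TEAD1 (-0.20 to -0.12) was the lowest in every alternative. The alternatives that left the values unchanged could not alter this order. Nor could median scaling or scaling on probes detected on both arrays, which shift all genes alike. AMOTL2 and WWTR1 differed by less than the technical SD of their difference. CYR61 ran from 0.15 to 0.32, TEAD4 from 0.14 to 0.31, CTGF from 0.09 to 0.16, LATS2 from 0.06 to 0.16, YAP1 from 0.06 to 0.17 over 10 alternatives and AJUBA from -0.08 to 0.00. Without a detection filter the median of all genes was 0.24, and 4 of the 9 genes lay above it in place of 7; with block centring 6 of 8 lay above. The log2 fold change of THOC2 was -0.51 with normexp and -1.42 for its brightest probe, and below 0 in 11 of 11 alternatives. The medians of the further targets (0.03 to 0.23) stayed above 0, while those of the kinase core (-0.09 to 0.05) and of the regulators (-0.03 to 0.17) changed sign. ANKRD1 gave no value, being dim on both arrays. No paired analysis was possible because there was 1 array per condition, and no replicate could be left out.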
